A study of Rattus norvegicus with 39 samples.

Results

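A set of 8 genes around the nuclear receptor PPAR gamma and the lipid droplet were read across 39 rat livers. They include Pparg, which encodes the receptor, the fatty acid carrier genes Cd36 and Fabp4, the lipase gene Lpl and its inhibitor gene Angptl4. The others are the droplet coat genes Plin1 and Plin2 and the adipokine gene Adipoq. The members were taken by symbol from the platform's table of probe sets and genes, with synonyms allowed. All 8 were found, through 10 of the 20826 probe sets that carry 1 symbol, and they make up 8 of 14217 measured genes. Plin1 and Plin2 have 2 probe sets each. A further probe set carries the symbol of Cd36 together with that of a related gene and was left out. All 8 entered the tests, to which no filter on dim genes was applied.

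The livers came from rats 5 to 6 weeks old, and the left lateral lobe was taken 48 h after treatment. ANIT was given at 125 mg/kg in corn oil, DMN and DNP at 15 mg/kg each in water and Roziglitazone at 1000 mg/kg in methylcellulose, all of them by mouth. NMF was given at 1000 mg/kg and Caerulein at 50 µg/kg, both in saline into the peritoneum. Each of these 6 groups held 5 rats. The Control group held 9 untreated rats that had no vehicle, so compound, vehicle and route cannot be told apart against it. DMN and DNP shared dose, vehicle and route, and NMF and Caerulein shared vehicle and route, which gives 2 comparisons free of that limit. The names are spelled as in the labels, where strain and sex are not given. Each array is called a biological replicate there.

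PPAR gamma binds DNA as a partner of a retinoid X receptor (RXR) and is the main switch of fat cell formation, where it turns on genes for fatty acid uptake, binding and storage. Thiazolidinedione drugs such as rosiglitazone are its agonists. Healthy liver holds little of the receptor and more of its relative PPAR alpha, which drives fatty acid oxidation and shares several targets, among them Cd36, Plin2 and Angptl4. Perilipins coat the lipid droplet and limit access of lipases to the stored triglyceride.

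Values are log2 of probe set intensities, and a difference of 1 is a 2-fold change. The arrays were alike in mean intensity, 348 to 363, but their median intensity ran from 77.8 to 108.7. Precision is limited by how many arrays there are. The summed intensity of 9 hepatocyte genes, albumin among them, lay between 79544.5 and 118350 in all 39 arrays. Of 9 fat cell genes, Cidec, Cfd, Cidea and Aqp7 had every group mean above the brightest poly-A spike probe set (6.47). Adipoq, Lep and Slc2a4 had all 7 group means at or below it, Adrb3 3 and Plin1 2. The other 26 spike probe sets had means of 3.49 to 4.70. Pparg (mean 6.23 over all arrays) and Adipoq (6.08) therefore lay above most of the spikes and below 1 of them. In bulk tissue, fewer cells of a type and less RNA per cell cannot be told apart. Across all genes the array labelled ANIT 3 correlated better with the DMN mean (0.705) than with its own group (0.301), Roziglitazone 2 better with ANIT (0.802) than with its own (−0.303), and DMN 2 hardly with its own (0.00344). These 3 are called the arrays of doubtful label, but they were not picked by 1 rule. Roziglitazone 1 (−0.221), Control 5 (−0.086) and DNP 1 (−0.061) had lower correlations with their own groups than DMN 2. DNP 2 correlated better with Caerulein (0.623) than with its own group (0.247). For 15 of 39 arrays the own group gave the best correlation. In 6 arrays (Control 4 and 5, DMN 3, DNP 1, NMF 3 and Roziglitazone 1) the 5′ control probe set of Gapdh lay at 6.34 to 7.42, against 10.49 to 12.93 in the other 33. RNA integrity is read from its gap to the 3′ probe set, and these arrays were not alike in that. The gap was 5.64 in Control 4, 6.07 in DMN 3 and 5.70 in NMF 3. In Control 5, DNP 1 and Roziglitazone 1 the 3′ signal was low as well (8.09, 9.99 and 10.84), with gaps of 1.75, 2.75 and 4.42. Those 3 arrays also had the lowest hepatocyte sums. Results are given with all arrays, and also without the 3 arrays of doubtful label or the 6 low in Gapdh 5′ signal where the results rest on them.

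With limma over all genes and an adjusted p under 0.05, 3 of the 8 members, Angptl4, Adipoq and Pparg, were lower in ANIT than in Control and 0 were higher. The background was 16.5% of all genes called, 8.29% lower and 8.19% higher. At an unadjusted p under 0.05 there were 6 members, beside 30.9% of all genes. In DMN 1 member, Fabp4, was higher, where 10.4% of all genes were called and 5.87% were called higher (2 members and 23.2% of all genes at an unadjusted p under 0.05). NMF had 0 members called, at a background of 7.48%, with 1 member (Fabp4) and 19.6% of all genes at an unadjusted p under 0.05. Caerulein, DNP and Roziglitazone had 0 members called, but there the background was 0.00% as well, and 0, 1 and 1 members had an unadjusted p under 0.05, while 3.81%, 1.40% and 7.34% of all genes did. The ANIT count was 1 without ANIT 1 and 5 without DMN 5 or without Control 3. Centring each array on its median moved the median of all genes in ANIT from −0.09 to 0.04, and the split of all called genes into higher and lower from 1165 and 1179 to 1667 and 627; in DMN the split went from 834 and 644 to 1047 and 339, and in NMF from 547 and 516 to 734 and 309. The 6 comparisons share the Control arrays. Between compounds of like vehicle and route, DMN differed from DNP in Fabp4 alone (background 6.89%), and NMF from Caerulein in 0 members (background 5.49%), with 2 (Angptl4 and Adipoq) at an unadjusted p under 0.05, as were 17.4% of all genes. The members' median log2 difference was −0.35 in ANIT, −0.20 in DMN, 0.01 in NMF and −0.22 in Roziglitazone, beside −0.09, −0.06, −0.05 and −0.06 over all genes tested.

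**Figure D1:**
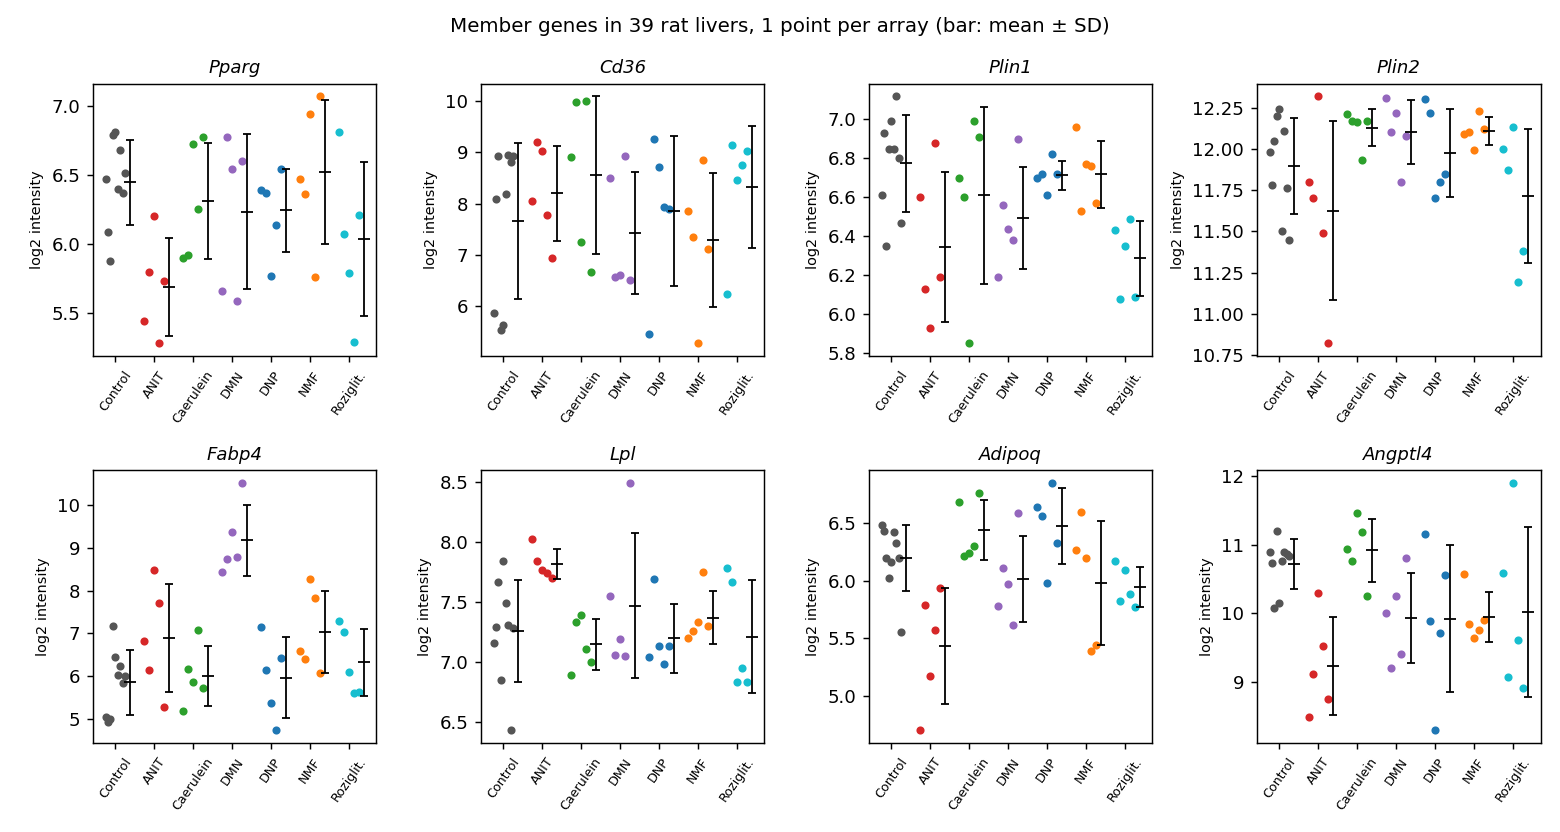
Log2 intensity of the 8 genes (y axis) in each of the 39 arrays by treatment group (x axis), 1 point per array, with the mean and SD of each group as a bar at its right; each panel has its own y range. Fabp4 lies at 8.44 to 10.53 in DMN, above all Control arrays, and Cd36 splits widely within most groups.

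**Figure D2:**
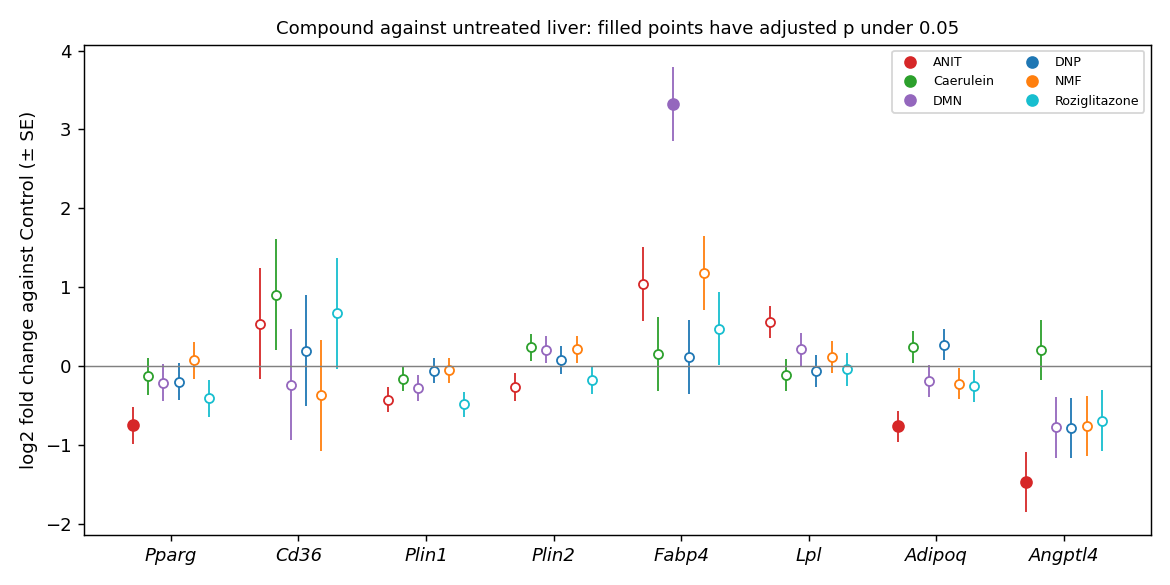
Log2 difference of each compound from Control (y axis, with its SE from limma) for the 8 genes (x axis); filled points have an adjusted p under 0.05 over 14217 genes. The filled points are Fabp4 in DMN (3.33) and Angptl4 (−1.47), Adipoq (−0.77) and Pparg (−0.76) in ANIT.

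Pparg was dim and moved little. The 9 Control arrays ran from 5.88 through a median of 6.47 to 6.81. The ANIT arrays were at 5.44, 5.80, 6.20, 5.28 and 5.73, so 4 of them lay below all Control arrays and ANIT 3 lay within the Control range. The mean fell from 6.44 ± 0.31 (SD, n = 9) to 5.69 ± 0.35 (SD, n = 5), a log2 change of −0.76 ± 0.23 (SE) or 1.69-fold, below the Control mean in 5 of 5 arrays (limma, adjusted p = 0.0226). This call was lost with each array centred on its median (−0.63, adjusted p = 0.0561) and with quantile normalization (−0.59, adjusted p = 0.0684), and also without ANIT 1 (adjusted p = 0.0646) or ANIT 4 (adjusted p = 0.0787). Without the 3 arrays of doubtful label it was −0.88 (adjusted p = 0.0120). The other group means lay between 6.03 in Roziglitazone and 6.52 in NMF, and no pair among Control and those 5 compounds was called. ANIT against NMF (−0.83, adjusted p = 0.0508) passed without the arrays of doubtful label (−0.96, adjusted p = 0.0228). The genes most like Pparg over the 39 arrays were Chst12 (r = 0.734), Neurl2 (r = 0.716) and Irag1 (r = 0.713).

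The upstream sequence of Pparg, Adipoq and Angptl4 is shown, the members called against Control for which a promoter was found. RefSeq promoters of the GRCr8 build were found for 6 of the 8 members, and none was used for Fabp4 and Lpl. The 250 bases before the transcript start are given 5′ to 3′ on the gene's strand, with matches to TATAAA on either strand in capitals. The positions are chr4:150096808-150097057 (plus strand) for the first and chr4:150154522-150154771 (plus strand) for the second Pparg start, chr11:91240170-91240419 (minus strand) for Adipoq and chr7:15258682-15258931 (minus strand) for Angptl4.
Pparg, first start: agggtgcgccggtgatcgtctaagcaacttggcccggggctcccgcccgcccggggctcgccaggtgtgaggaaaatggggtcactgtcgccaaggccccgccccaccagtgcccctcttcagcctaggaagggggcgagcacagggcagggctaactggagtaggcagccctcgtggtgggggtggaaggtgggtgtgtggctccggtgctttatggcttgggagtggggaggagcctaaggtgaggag
Pparg, second start: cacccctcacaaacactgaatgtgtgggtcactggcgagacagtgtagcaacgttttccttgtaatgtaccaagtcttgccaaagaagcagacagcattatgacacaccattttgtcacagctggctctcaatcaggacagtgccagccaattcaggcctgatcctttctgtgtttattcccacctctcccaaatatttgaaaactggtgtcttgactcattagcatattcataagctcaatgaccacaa
Adipoq: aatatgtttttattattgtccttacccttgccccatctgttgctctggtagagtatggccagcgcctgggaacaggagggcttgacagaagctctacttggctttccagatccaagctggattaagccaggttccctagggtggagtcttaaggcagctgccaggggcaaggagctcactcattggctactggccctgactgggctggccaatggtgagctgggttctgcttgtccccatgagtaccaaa
Angptl4: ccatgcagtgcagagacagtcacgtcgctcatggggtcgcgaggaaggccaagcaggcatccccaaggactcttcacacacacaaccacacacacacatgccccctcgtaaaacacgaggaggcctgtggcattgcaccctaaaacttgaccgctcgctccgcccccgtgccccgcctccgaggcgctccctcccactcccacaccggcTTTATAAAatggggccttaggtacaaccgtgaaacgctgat
Angptl4 alone of these held TATAAA, at −39 on its own strand and overlapped from −41 by a match on the other strand. This motif was found in 12.9% of 33469 promoters of the same length. The direct repeat bound by PPAR and RXR pairs, searched as AGGNCANAGGNCA on both strands, was found in 0.368% of all promoters and in none of the 8 promoters of members, and its unit AGGTCA in 14.1% and in none of these. That says only that those letters do not stand in these windows. The GC content of the shown windows was 67.2% and 44.8% for the Pparg starts, 53.2% for Adipoq and 60.0% for Angptl4.

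Under Roziglitazone, whose name matches the PPAR gamma agonist, Pparg was at 6.81, 6.07, 5.79, 5.29 and 6.21, a difference of −0.41 from Control with a 95% interval of −0.88 to 0.06. The highest of these values lay level with the top Control array and the lowest below all of them. Plin1, the perilipin typical of fat cells, was the member nearest to a call there: its arrays read 6.43, 6.08, 6.35, 6.49 and 6.09, all below the Control mean of 6.77 ± 0.25 (SD, n = 9). The difference was −0.49 ± 0.16 (unadjusted p = 0.00418, adjusted p = 0.567 in limma), lower rather than higher, and the groups overlapped. The intervals of the other members were −0.75 to 2.09 for Cd36, −0.47 to 1.42 for Fabp4, −0.46 to 0.37 for Lpl, −0.66 to 0.15 for Adipoq, −0.53 to 0.17 for Plin2 and −1.47 to 0.08 for Angptl4. Over all settings tried, the lowest adjusted p of any member was 0.162, for Plin1. With all arrays, Roziglitazone 2 among them, a measured rise of 2-fold thus lay outside the interval for Pparg, Plin1, Plin2, Lpl, Adipoq and Angptl4. Such a rise lay inside the interval for Cd36 and Fabp4. Pparg, Adipoq and Plin1 were read near the spikes, and whether a 2-fold rise in RNA would show in full there was not tested. Angptl4 was spread widely in this group, at 10.59, 9.07, 11.90, 9.62 and 8.91, and reached both above and below all Control arrays. Without the 3 arrays of doubtful label its difference was −0.46, and no member was called in that fit either.

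Few of the receptor's partners and relatives were called. Ppara, Rxra and Rxrb were not called in any comparison with Control, and the widest difference among them was 0.70 for Rxra in Caerulein (limma, adjusted p = 0.994). Ppard, the third PPAR, was lower in ANIT (−0.50 ± 0.18, limma adjusted p = 0.0481), a call lost without the arrays of doubtful label and with each array centred on its median. Rxrg was lower in DMN (−0.69 ± 0.22, adjusted p = 0.0398), lost with centring, without the low Gapdh 5′ arrays and in a fit of DMN and Control alone. Of the 15 measured PPAR, RXR and cofactor genes these were the calls against Control with all arrays, 1 each in ANIT and DMN, below the 16.5% and 10.4% of all genes. The count was not stable: without 1 array it ran from 0 to 2 in ANIT, differing in 20 of 39 fits, and was 0 in 6 of 39 fits in DMN, and other alternatives gave up to 4 in ANIT and up to 2 in DMN. In ANIT the centred values had 1 gene of this list higher and 0 lower, in place of 0 and 1, and the quantile normalized ones 0 and 2. Rxrg stood at −0.59 in ANIT (adjusted p = 0.0657).

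Fabp4, a fatty acid binding protein of fat cells, macrophages and capillary endothelium, gave the largest difference of any member. Control arrays ran from 4.92 through a median of 6.01 to 7.18. The 5 DMN arrays were at 8.44, 8.74, 9.38, 8.80 and 10.53, so every DMN array was higher than every Control array, in a comparison where 2.33% of all genes had no overlap and 1.34% were higher without overlap. The DMN mean was 9.18 ± 0.83 (SD, n = 5) and the Control mean 5.85 ± 0.76 (SD, n = 9), which makes 3.33 ± 0.47 on the log2 scale or 10.03-fold (limma, adjusted p = 1.23e-05). The Control mean lay below that of the brightest spike probe set. The call held under every alternative, with a log2 change of 2.99 to 3.55, also without the arrays of doubtful label (3.44) and without those low in Gapdh 5′ signal (3.55).

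Fabp4 was also higher in DMN than in each other compound. DNP read 7.16, 6.14, 5.37, 4.73 and 6.42, so DMN lay above it in 5 of 5 arrays with no overlap (4.70% of all genes had none), by 3.22 ± 0.53 (limma, adjusted p = 1.84e-04). Roziglitazone and NMF were lower than DMN with no overlap, by 2.85 (adjusted p = 0.00145) and 2.15 (adjusted p = 0.0101), where 3.41% and 4.66% of all genes were called and 2.10% and 3.40% had no overlap. Caerulein, too, did not overlap, and Caerulein minus DMN was −3.18 (adjusted p = 1.32e-04, background 6.39% called and 6.02% without overlap). ANIT minus DMN was −2.29 with overlap (adjusted p = 0.0152, background 2.53%), a call lost in a fit of those groups alone (adjusted p = 0.162) and without ANIT 2, ANIT 5 or DMN 5 (adjusted p = 0.0645, 0.0886 and 0.0504). The ANIT arrays read 6.83, 6.15, 8.48, 7.72 and 5.27, and the highest of them was ANIT 3, the array that correlated best with DMN. NMF arrays read 6.58, 6.41, 8.27, 7.82 and 6.06, all above the Control mean and overlapping Control. Against Control the difference was 1.04 ± 0.47 in ANIT (adjusted p = 0.123) and 1.18 ± 0.47 in NMF (adjusted p = 0.129), neither of them called. ANIT passed at 1.31 (adjusted p = 0.0307) without the arrays low in Gapdh 5′ signal and at 1.44 (adjusted p = 0.0415) without ANIT 5, and stood at 0.64 (adjusted p = 0.407) without those of doubtful label. Among Control and the 5 other compounds, no pair differed in Fabp4 by the test.

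Markers of other cell types were also called in DMN, though the array DMN 2 stood apart in them. Over all genes 10.4% were called in DMN, and 5.87% were called higher. Of 12 macrophage genes measured, Gpnmb (3.21 ± 0.39), Lyz2 (1.80 ± 0.24) and Lgals3 (0.97 ± 0.28) rose in DMN, while the endotoxin co-receptor gene Cd14 (−1.03 ± 0.23) and the Kupffer cell lectin gene Clec4f (−0.73 ± 0.14) fell (limma, adjusted p from 1.52e-06 to 0.0219). The summed intensity of the macrophage list ran from 12838 to 24130 in DMN and from 12025 to 14796 in Control. Of 10 endothelial genes, 4 fell and 0 rose, namely Stab2 (−2.08), Kdr (−1.63), Stab1 (−1.09) and Tek (−0.75), and the list's sum ran from 3306 to 5545 in DMN against 3586 to 8430. Of 5 neutrophil genes 3 rose, S100a8 (2.17), S100a9 (1.95) and Csf3r (0.85), with a sum of 377 to 7173 against 421 to 1167. The fat cell list had 1 of 9 genes higher (Cidea) and 2 lower (Cfd and Cidec), with sums of 1527 to 1987 in DMN and 1748 to 2500 in Control. Of 12 stellate and fibroblast genes 3 were higher, led by Tagln (1.96), and Col3a1 was lower (−1.08). The hepatocyte sum ran from 101000 to 112433 in DMN and from 80926 to 113519 in Control. DMN 2, an array of doubtful label, gave the lowest macrophage (12838) and neutrophil (377) sums of the group and the highest endothelial sum (5545). Its Fabp4 value was 8.74, above all Control arrays. The part of any of these cell types in the Fabp4 difference was not tested. Without the arrays of doubtful label the counts were the same for the macrophage, endothelial, neutrophil and fat cell lists. The stellate list then had 4 higher and 2 lower. Without the arrays low in Gapdh 5′ signal the neutrophil list had 2 higher, having lost Csf3r, and the stellate list 2 higher and 1 lower. The fat cell list had 0 higher and 2 lower in that fit. The S100a9 call was lost in a fit of DMN and Control alone, and Csf3r had all 7 group means at or below the brightest spike probe set. Gpnmb was also higher in NMF (2.34) and ANIT (1.91), and Lyz2 in ANIT (1.10). Fabp4 stood at 1.18 in NMF (limma, adjusted p = 0.129) and 1.04 in ANIT (adjusted p = 0.123), neither called with all arrays.

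The genes whose levels followed Fabp4 most closely over the 39 arrays were Atp6v1d, a subunit of the proton pump of lysosomes (r = 0.863), Thyn1 (r = 0.832) and Rfc4, a subunit of the clamp loader of DNA replication (r = 0.822). Within groups these values were 0.634, 0.620 and 0.553, each lower than over all arrays. They were picked as the highest of 9808 genes brighter than the spikes and are a description.

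Angptl4 encodes a secreted inhibitor of lipoprotein lipase and is a target of the PPARs in fasting liver. It was bright, and it was the member that fell most in ANIT. Control arrays ran from 10.08 through 10.83 to 11.20. The ANIT arrays were at 8.49, 9.12, 10.30, 9.53 and 8.75, and 4 of them lay below all Control arrays, the exception being ANIT 3. The mean went from 10.71 ± 0.36 (SD, n = 9) to 9.24 ± 0.71 (SD, n = 5), a fall of 2.78-fold (−1.47 ± 0.38, limma adjusted p = 0.00690). Without the arrays of doubtful label the change was −1.74 (adjusted p = 0.00170), and with the arrays centred on their medians it was −1.35 (adjusted p = 0.0142). Against Caerulein, whose arrays read 10.94, 10.76, 11.46, 11.18 and 10.25, ANIT was lower (−1.68 ± 0.43, adjusted p = 0.00802, background 15.5%), and the groups overlapped through ANIT 3.

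The means of Angptl4 in DMN, DNP, NMF and Roziglitazone lay close together at 9.92 to 10.02, with differences of −0.79 to −0.69 from Control, none of them called (adjusted p from 0.213 to 1.0). All 5 NMF arrays, at 10.57, 9.85, 9.64, 9.76 and 9.90, were below the Control mean and 4 of them below all Control arrays. In a fit of NMF and Control alone the difference of −0.77 was called (adjusted p = 0.0269), and so was that of −0.97 from Caerulein in a fit of those groups alone (adjusted p = 0.0309), against 0.226 over all groups. DNP was uneven, with values of 11.16, 9.89, 8.30, 9.71 and 10.56. The most similar gene over the arrays was Rgs16, a regulator of G protein signalling (r = 0.756 and 0.652 within groups), followed by Mcpt1 and Slc25a30 at 0.621 and 0.620.

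Adipoq, the gene of the fat cell hormone adiponectin, was read near background and was lower in ANIT. Control arrays ran from 5.55 through 6.20 to 6.48. The ANIT arrays were at 4.70, 5.79, 5.17, 5.57 and 5.94, of which 2 were below all Control arrays. The mean fell from 6.20 ± 0.29 (SD, n = 9) to 5.43 ± 0.50 (SD, n = 5), by 1.70-fold (−0.77 ± 0.20, limma adjusted p = 0.00727). The call was lost without ANIT 1 (−0.58, adjusted p = 0.0523) and held at −0.64 with centred arrays. ANIT did not overlap with DNP, at 6.64, 6.56, 5.98, 6.85 and 6.33, or with Caerulein, at 6.68, 6.21, 6.24, 6.30 and 6.76. The differences were −1.04 ± 0.23 (adjusted p = 0.00208, background 13.3% called and 11.6% without overlap) and −1.003 ± 0.227 (adjusted p = 0.00279, 17.0% without overlap). All 7 group means lay at or below that of the brightest spike probe set. Terf2, Cd22 and Ankrd34a followed Adipoq most closely (r from 0.755 to 0.778).

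Markers of other cell types were also called in ANIT, the group where Angptl4, Adipoq and Pparg were lower. Of 12 macrophage genes, Gpnmb (1.91 ± 0.39) and Lyz2 (1.10 ± 0.24) rose, and Cd14 (−1.02 ± 0.23) and Adgre1 (−0.92 ± 0.31) fell in limma, the Adgre1 call being lost with centring and with quantile normalization. The list's summed intensity ran from 13784 to 18214 in ANIT and from 12025 to 14796 in Control. Of 10 endothelial genes, Kdr (−1.08 ± 0.28) and Stab2 (−0.94 ± 0.30) fell, the Stab2 call being lost in 5 of 11 alternatives, among them that without the arrays of doubtful label, with sums of 2886 to 5126 against 3586 to 8430. Of 12 stellate and fibroblast genes, Timp1 rose (1.53 ± 0.31) and Lrat fell (−1.59 ± 0.43). The fat cell list had Cidea higher and Adipoq itself lower of 9 genes, with sums of 1987 to 2746 against 1748 to 2500. Of 9 hepatocyte genes Apoa1 rose (0.38 ± 0.12), a call lost in a fit of ANIT and Control alone, with sums of 110696 to 118350 against 80926 to 113519. None of 5 neutrophil genes was called in limma (1 at an unadjusted p under 0.05, which 30.9% of all genes reached), and their sums ran from 541 to 2838 against 421 to 1167. ANIT 3, an array of doubtful label, gave the highest macrophage and neutrophil sums and the lowest endothelial sum. In the other ANIT arrays the macrophage sum reached 15372, the neutrophil sum 729, and the endothelial sum was at least 4128. The part of any of these cell types in the ANIT differences was not tested.

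Lpl, the lipase that frees fatty acids from circulating lipoproteins and that Angptl4 inhibits, was not called against Control, though ANIT came near. Control arrays ran from 6.43 through 7.29 to 7.84, and the ANIT arrays were tightly set at 8.02, 7.84, 7.76, 7.74 and 7.70. All 5 were above the Control mean, yet they overlapped with the top of Control. The difference was 0.56 ± 0.21 and missed the threshold (limma, adjusted p = 0.0593). It passed with centred arrays (0.69, adjusted p = 0.0176), without the arrays low in Gapdh 5′ signal (0.58, adjusted p = 0.0390) and with array weights (0.58, adjusted p = 0.00419), and also without DMN 5, Control 3 or Control 5 (adjusted p from 0.0271 to 0.0459). Against Caerulein, which ran from 6.89 through 7.11 to 7.39, ANIT was higher with no overlap by 0.67 ± 0.23 (adjusted p = 0.0471, background 15.5% called and 17.0% without overlap). That call was lost in 19 of the 39 fits that left out 1 array, and without the arrays of doubtful label (adjusted p = 0.0553). It was also lost with every probe set tested (adjusted p = 0.0574) and with the mean of a gene's probe sets (adjusted p = 0.0502). In DMN the array DMN 5 stood at 8.49, the highest of all 39, and the others at 7.05 to 7.55. Jun, Tnfaip3 and Mcm3 had the patterns most like that of Lpl (r from 0.662 to 0.691).

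Cd36, the fatty acid translocase at the cell surface, varied more within groups than nearly any other gene. Its SD within groups was 1.35, and 99.8% of genes had a smaller one. Control arrays read 5.87, 8.10, 8.93, 5.53, 5.63, 8.18, 8.95, 8.81 and 8.94, with nothing between 5.87 and 8.10. No comparison called Cd36, and the largest difference from Control, 0.90 in Caerulein, had a 95% interval of −0.52 to 2.33. In the 6 arrays low in Gapdh 5′ signal Cd36 lay between 5.27 and 6.60, and in the other 33 between 5.87 and 9.999 with a median of 8.50, where only 3 were under 6.60. Leaving these 6 arrays out raised the Control mean from 7.66 ± 1.52 (SD, n = 9) to 8.26 ± 1.11 (SD, n = 7) and narrowed Roziglitazone from 8.33 ± 1.20 (SD, n = 5) to 8.85 ± 0.31 (SD, n = 4). The difference of Roziglitazone from Control was 0.67 before and 0.60 after, with no call in either fit (limma, adjusted p = 0.848 and 0.715). The 3 most similar genes, Sh3bgrl1, Ppm1a and Golph3 (r from 0.826 to 0.839), were low in the same 6 arrays: Golph3 read 5.69 to 6.22 there and 6.70 to 9.68 elsewhere. All 6 of these arrays were above the median of the other 33 for Pparg (6.39 to 6.94 against a median of 6.20), Fabp4 (6.44 to 9.38 against 6.14) and Plin2 (11.99 to 12.30 against 11.98). For Plin1, Lpl, Adipoq and Angptl4 they lay on both sides of it. Pparg, high in the arrays where Cd36 was low, ran opposite to Cd36 over the 39 arrays (r = −0.558), the strongest relation between any members. The 6 arrays low in Gapdh 5′ signal differed in their 3′ signal, and the part of RNA integrity in the Cd36 values was not tested.

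**Figure D3:**
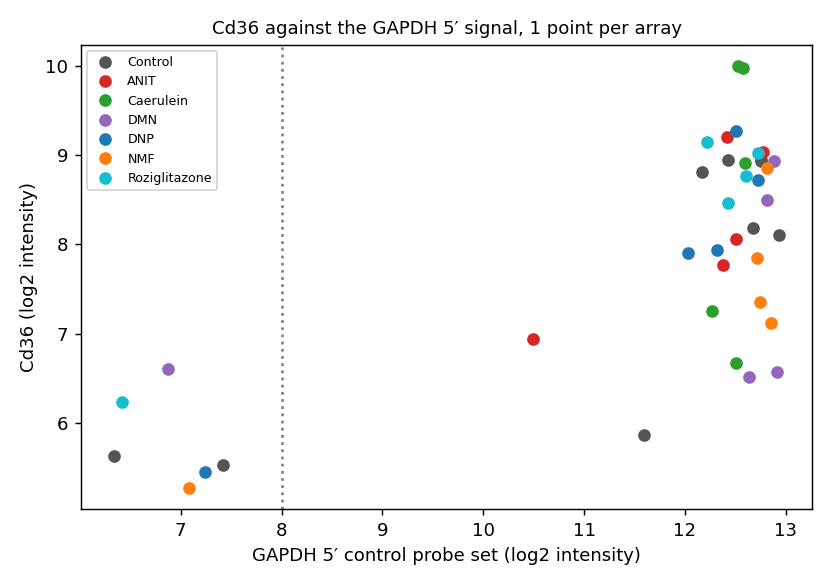
Log2 intensity of Cd36 (y axis) against that of the Gapdh 5′ control probe set (x axis), 1 point per array, coloured by group; the dotted line marks log2 8. The 6 arrays left of the line have Cd36 at 5.27 to 6.60, and they come from 5 groups.

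Plin2, the perilipin that coats droplets in liver cells, was the brightest member, with a mean of 11.93 on its brighter probe set. Control arrays ran from 11.45 through 11.98 to 12.24. The DMN arrays, at 12.31, 12.10, 12.22, 11.80 and 12.08, were mostly in the upper part of that range, with DMN 1 above it. The DMN difference from Control was 0.21 ± 0.17 (limma, adjusted p = 0.522). All 5 NMF and all 5 Caerulein arrays were above the Control mean, by 0.21 and 0.23 on average, and neither was called. ANIT spread widely, at 11.80, 11.70, 12.32, 11.49 and 10.82, with ANIT 3 the highest. Without the arrays of doubtful label ANIT was lower than Caerulein (−0.68, adjusted p = 0.0172), DMN (−0.65, adjusted p = 0.0480) and NMF (−0.65, adjusted p = 0.0302), calls that the fit of all arrays did not make.

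The dimmer Plin2 probe set, with a mean of 6.88, was called in DMN where the brighter one was not. Its Control arrays ran from 6.42 through 6.70 to 7.79, and its DMN arrays were at 7.57, 7.65, 8.33, 7.47 and 8.08, above all Control arrays but Control 5, which is low in Gapdh 5′ signal. The difference was 0.99 ± 0.25, or 1.99-fold (limma over 20826 probe sets, adjusted p = 0.0110, background 7.17%). It was 1.41 ± 0.29 from DNP with no overlap (adjusted p = 0.00244) and 1.12 from Roziglitazone with no overlap (adjusted p = 0.0270). Caerulein minus DMN was −1.34 with no overlap (adjusted p = 0.00386). The shares of probe sets called in these comparisons were 4.60%, 2.14% and 4.45%. Counted over genes rather than probe sets, 4.70%, 2.10% and 6.02% had no overlap there. The gap from the dimmer to the brighter probe set was −4.28 ± 0.35 (SD, n = 5) in DMN and −5.07 ± 0.39 (SD, n = 9) in Control. With the mean of both taken as the gene, Plin2 was called in DMN against Control (0.60, adjusted p = 0.0189) and against DNP (0.77, adjusted p = 0.0111).

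**Figure D4:**
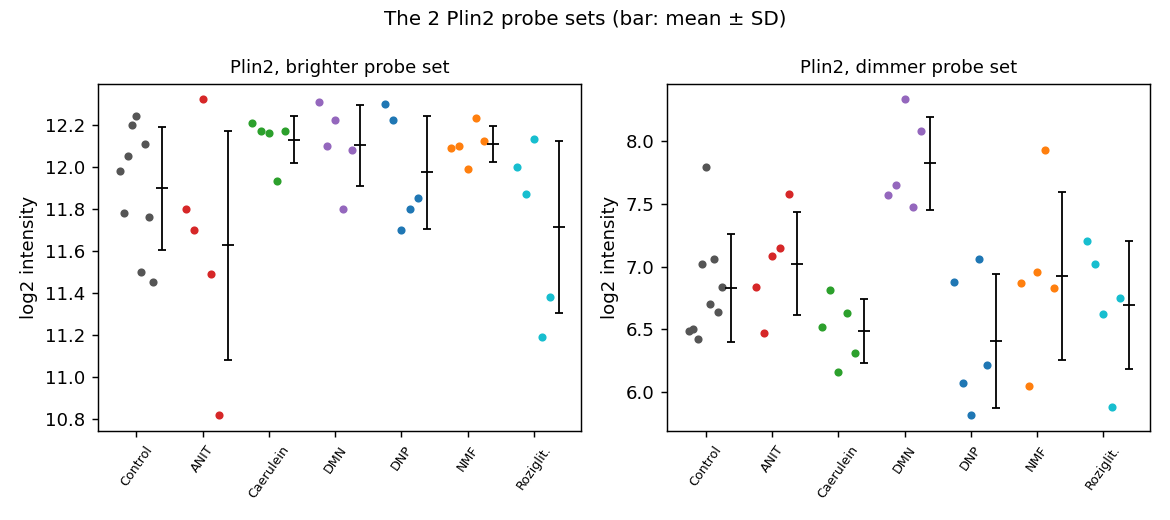
Log2 intensity (y axis) of the brighter (left) and the dimmer (right) Plin2 probe set by group (x axis), 1 point per array with the mean and SD as a bar. On the dimmer one DMN lies at 7.47 to 8.33 and Control at 6.42 to 7.79. On the brighter one DMN lies at 11.80 to 12.31 and Control at 11.45 to 12.24.

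Plin1 was dim, and no comparison called it with all arrays. Control arrays ran from 6.35 through 6.85 to 7.12, and group means lay between 6.29 in Roziglitazone and 6.77 in Control. In ANIT the arrays were at 6.60, 6.13, 5.93, 6.88 and 6.19, a difference of −0.43 ± 0.16 that missed the threshold (limma, adjusted p = 0.0604). It was −0.30 with centred arrays (adjusted p = 0.225) and −0.32 without the arrays of doubtful label (adjusted p = 0.207). It passed with array weights (−0.38, adjusted p = 0.0466), with the filter on dim genes (adjusted p = 0.0496), without ANIT 4 (−0.56, adjusted p = 0.0199) or Control 3 (−0.48, adjusted p = 0.0365), and without Caerulein 3, DMN 5 or Control 9 (adjusted p from 0.0347 to 0.0499). DNP, with a narrow range of 6.61 to 6.82, and NMF did not overlap with Roziglitazone, the differences being 0.43 each, and neither was called (0.964% and 3.51% of all genes had no overlap). The second probe set of Plin1, with a mean of 5.62, was not called against Control in ANIT, DMN or Roziglitazone. Tnfaip8l3, Tti2 and Rassf10 were most like Plin1 (r from 0.677 to 0.703), and Bop1, Clta and Tmem37 most like Plin2 (r from 0.561 to 0.593).

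Genes of the same pathways outside the 8 were called in both directions. Lists of genes around the receptor, the droplet, fatty acid uptake and oxidation were counted gene by gene at the same threshold in limma. Over all genes 8.19% were called higher and 8.29% lower in ANIT, 10.4% were called in DMN and 7.48% in NMF. Among 18 measured fat cell and PPAR gamma target genes, ANIT had 2 higher and 2 lower, DMN 2 and 3, and NMF 1 and 3. Cidea, which promotes droplet growth, rose in ANIT (1.61 ± 0.33), NMF (1.34 ± 0.33) and DMN (1.03 ± 0.33), the last call being lost without the arrays low in Gapdh 5′ signal and in a fit of DMN and Control alone. The acyl-CoA synthetase gene Acsl1 fell in ANIT (−1.01 ± 0.18) and DMN (−0.75 ± 0.18), and both calls were lost with the mean of its probe sets. Gk, for glycerol kinase, fell in NMF (−1.33 ± 0.29) and ANIT (−0.96 ± 0.29), the latter lost with centred arrays. The gene of the fat cell protease adipsin, Cfd, fell in DMN (−1.08 ± 0.23) and NMF (−0.72 ± 0.23), the latter call holding in only 5 of 11 alternatives. Fabp5, another fatty acid binding protein gene, fell in NMF (−1.05 ± 0.19). Fgf21, for a fasting hormone made in liver, rose in DMN (1.31 ± 0.38), a call lost without the arrays of doubtful label and with array weights. Ucp2, for a mitochondrial carrier, rose in ANIT (0.68 ± 0.23), also lost without the arrays of doubtful label. The median of this list was −0.19 in ANIT, −0.24 in DMN, −0.16 in NMF and −0.17 in Roziglitazone. The count of calls went from 4 to 2 in ANIT without ANIT 5 and from 5 to 3 in DMN without DMN 5.

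Of 22 droplet coat, lipase and triglyceride synthesis genes, ANIT had 2 higher and 4 lower, DMN 1 and 3, and NMF 4 and 4, where 16.5%, 10.4% and 7.48% of all genes were called (8.19% higher in ANIT). Plin3, a perilipin gene active in many cell types, rose in ANIT (1.23 ± 0.18, limma adjusted p = 1.17e-05), NMF (1.04 ± 0.18) and DMN (0.58 ± 0.18), the last lost without the arrays low in Gapdh 5′ signal. G0s2, for an inhibitor of the main triglyceride lipase, fell in ANIT (−1.34 ± 0.37). Lpin1, for a phosphatidate phosphatase, fell in NMF (−1.74 ± 0.41) and DMN (−1.51 ± 0.41). Pnpla3 fell in NMF (−1.65 ± 0.49), which was lost without the arrays low in Gapdh 5′ signal. Dgat2, for the last enzyme of triglyceride synthesis, fell in ANIT (−0.71 ± 0.15) and DMN (−0.63 ± 0.15), and both calls were lost with the mean of its probe sets. The droplet protein gene Hsd17b13 fell in NMF (−0.91 ± 0.19) and ANIT (−0.67 ± 0.19), the latter lost with centred arrays, and Hsd17b11 in DMN (−0.37 ± 0.12), lost in 4 of 11 alternatives. Without the arrays of doubtful label DMN had 2 higher and 5 lower, and without those low in Gapdh 5′ signal 0 and 2. Leaving out DMN 1 gave 2 calls in DMN, and leaving out DMN 2 gave 7. Centring left 2 lower in ANIT and 1 in DMN. In NMF the 8 calls became 4 without NMF 1 and 5 without NMF 5.

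Of 15 genes of fatty acid uptake and plasma lipase control, ANIT had 3 higher and 4 lower, DMN 2 and 3, and NMF 0 and 3, beside 16.5%, 10.4% and 7.48% of all genes called. The hepatic lipase gene Lipc fell in ANIT (−1.55 ± 0.21, limma adjusted p = 4.37e-06) and NMF (−1.25 ± 0.21). The intestinal fatty acid binding protein gene Fabp2 rose in ANIT (1.22 ± 0.24) and DMN (1.15 ± 0.24). Angptl8, for a relative of Angptl4 that also restrains lipoprotein lipase, rose in DMN (1.34 ± 0.34), and Scarb1, for the receptor of high density lipoprotein, rose in ANIT (1.22 ± 0.26). Slc27a1, for a fatty acid transport protein, fell in DMN (−0.62 ± 0.13) and ANIT (−0.58 ± 0.13), and Slc27a5, for a bile acid and fatty acid CoA ligase, fell in NMF (−0.87 ± 0.15). Lmf1, for a lipase maturation factor, fell in DMN (−0.53 ± 0.14), lost with centred arrays, and Apoc3, for another lipase inhibitor, in NMF (−0.36 ± 0.08), likewise lost. The 5 calls in DMN became 3 without DMN 3 and 2 without DMN 5.

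Of 16 PPAR alpha targets of fatty acid oxidation, NMF had 4 higher and 0 lower, ANIT 2 and 0, and DMN 1 and 1. The shares of all genes called were 7.48%, 16.5% and 10.4%, so the counts in ANIT and DMN are near the background. Those higher in NMF were the thioesterase gene Acot2 (1.35 ± 0.30), the pantetheinase gene Vnn1 (1.10 ± 0.34), Cpt2 (0.78 ± 0.17) and Acaa2 (0.61 ± 0.15), the latter pair for enzymes of mitochondrial oxidation (limma, adjusted p from 0.00226 to 0.0402). Vnn1 (1.13 ± 0.34) and Acot1 (0.60 ± 0.19) rose in ANIT, and Acot1 (0.56 ± 0.19) rose and the peroxisomal Ehhadh (−1.57 ± 0.31) fell in DMN. The Acot1 call in ANIT was lost without the arrays of doubtful label and that in DMN in 4 of 10 alternatives. Without 1 array the count ran from 0 to 3 in ANIT (0 without ANIT 4, 1 without ANIT 5 or Control 6), from 1 to 3 in DMN (1 in 22 of 39 fits) and from 3 to 5 in NMF. With array weights it was 6 in ANIT and 8 in NMF. The median of this list was 0.38 in NMF, −0.08 in ANIT and 0.04 in DMN, beside −0.05, −0.09 and −0.06 over all genes.

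Roziglitazone had 0 calls in limma on each of these lists. At an unadjusted p under 0.05, which 7.34% of all genes reached, it had 0 of 18 fat cell and PPAR gamma target genes, 6 of 22 droplet genes, 1 of 15 uptake genes, 1 of 15 receptor and cofactor genes and 0 of 16 PPAR alpha targets. Of the 18 PPAR gamma target genes 1 was above Control and the others below, with a median of −0.17, while the median of all genes was −0.06.

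**Figure D5:**
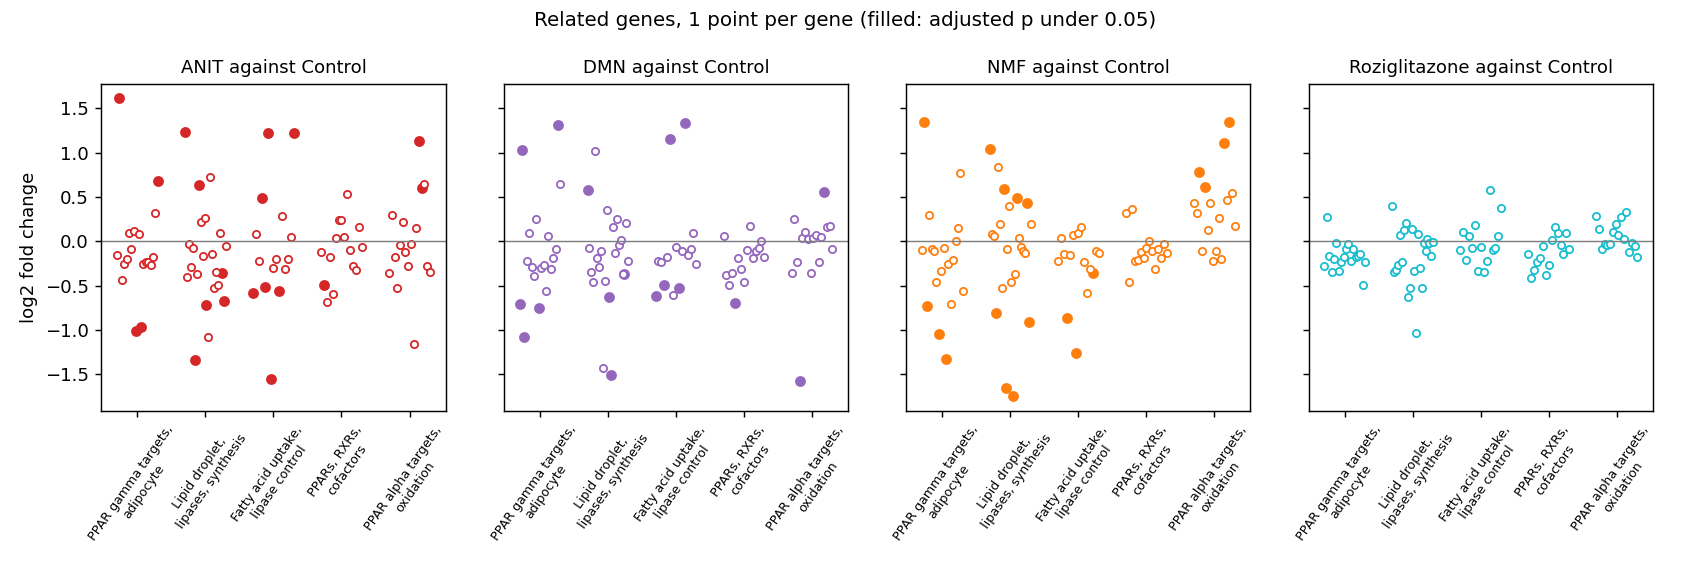
Log2 difference from Control (y axis) of the related genes by list (x axis) in ANIT, DMN, NMF and Roziglitazone, 1 point per gene; filled points have an adjusted p under 0.05. Filled points lie on both sides of 0 in ANIT, DMN and NMF, and Roziglitazone has none.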

How the data were processed

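Total RNA of 39 rat livers was labelled with biotin and hybridised to Affymetrix arrays, 1 array per biological replicate, per the labels' protocols. The authors deposited 1 table of 31099 probe sets in linear intensity units. The submitters' processing notes name RMA and affy, without versions or settings. The plan for these tests assumed log2 values, and since the deposited intensity is linear, log2 was taken here with no pseudocount and no further normalization. Probe sets with 1 gene symbol (20826) were reduced to 14217 genes, each by its probe set of highest mean. The 57 control probe sets, the 436 with several symbols and the 9780 with none were left out.

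Groups were compared with limma 3.58.1 in R 4.3.3, with 1 mean per group over all 39 arrays and Benjamini-Hochberg adjustment over all genes in each of 21 comparisons, at a threshold of 0.05. The fit was tested on simulated data. The replicate numbers of the labels were not taken as pairs: 1 of 21 group pairs had every same-numbered correlation of deviations above 0.1. The alternatives covered normalization, a pseudocount of 16, a filter leaving out the dimmest 30% of genes, the probe set rule, array weights, the fit and leaving out arrays.

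The genes and lists were chosen with earlier results of these data known. All 8 genes are named. From each list at most 4 called genes per comparison are named, those of largest change, besides the PPAR and RXR genes. The 3 genes most correlated with each gene were taken from those with a mean above all poly-A spikes. Promoters are those of members called against Control.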

Additional observations from a re-analysis of the deposited data

Results flagged for a closer look

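In 6 of 56 groups, 1 array stood apart from the rest of its group by the ratio of its gap to the group's range. Chance flags about 1 in 20 groups. Cd36 was at 6.24 in Roziglitazone 1, below the 8.46 to 9.15 of the others, and that array is also low in Gapdh 5′ signal. Plin2 was at 11.93 in Caerulein 4, below 12.16 to 12.21. Lpl was at 7.69 in DNP 2, above 6.98 to 7.13, and at 7.75 in NMF 4, above 7.20 to 7.33. Adipoq was at 5.55 in Control 9, below 6.02 to 6.48. Angptl4 was at 10.57 in NMF 1, above 9.64 to 9.90.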

How the results depend on the processing

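No called member changed its direction under any alternative. Of the 8 genes, those called in ANIT against Control numbered 3, and 5 with array weights or without the 6 arrays low in Gapdh 5′ signal, an alternative chosen after seeing the data. Leaving out 1 array gave 1 to 5. In DMN against Control the count went from 1 to 2 with the mean of a gene's probe sets, and in DMN against DNP from 1 to 2 with that mean (Plin2, 0.77) and with array weights (Adipoq, −0.63). Fitting only the groups compared gave 1 call in NMF against Control and 1 against Caerulein, in place of 0. The other 13 compound pairs had 8 calls, 17 with array weights and 6 to 11 without 1 array. With the replicate block, ANIT against Control kept 1 of 3 calls, Adipoq (−0.83, adjusted p = 0.0197 in limma), while Pparg stood at −0.72 (adjusted p = 0.0649) and Angptl4 at −1.37 (adjusted p = 0.0516); the replicate numbers were not taken to pair the animals, and Fabp4 remained called in DMN against Control at 3.46. Of the listed genes, the block also ended the calls of Plin3, Hsd17b11, Fgf21, Angptl8, Slc27a5, Rxrg, Acot1 and Csf3r in DMN, of Ucp2, Hsd17b11, Acot1, Adgre1 and Stab2 in ANIT, and of Cfd, Pnpla2, Hsd17b11, Vnn1, Csf1r and Cd5l in NMF. The filter on dim genes removed Pparg and Adipoq, and Plin1 and Lpl then passed in ANIT. The cause of these changes was not tested. The precision is limited by 5 arrays per group and, for Pparg, Adipoq and Plin1, by signals near those of the spikes.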
